A study of Mus musculus with 6 samples.

Results

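Beta cells are held in their mature state by a small set of transcription factors, and 10 genes encoding such factors were examined in mouse islets: Pdx1, Mafa, Nkx6-1, Nkx2-2, Neurod1, Pax6, Isl1, Foxa2, Rfx6 and Mnx1. Each was taken as the entry of the deposited count table whose name equals the gene symbol, which found all 10 among 22923 entries. All 10 passed the filter on low counts, as did 14082 entries in all.

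In the pancreas these factors act in sequence and then together. Pdx1, Foxa2 and Mnx1 are needed early for the pancreatic bud, Neurod1, Nkx2-2, Rfx6, Pax6 and Isl1 for the making of endocrine cells, and Nkx6-1, Mafa and Pdx1 for the identity and glucose response of the mature beta cell, where several of them bind the insulin promoter. Mafa is nearly confined to beta cells among mouse islet cells and Pdx1 and Nkx6-1 largely so, whereas Neurod1, Pax6, Isl1, Nkx2-2, Rfx6 and Foxa2 are shared with alpha cells and, for most, other endocrine cells. FFA2, the product of Ffar2, is a receptor for short-chain fatty acids such as acetate and propionate.

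RNA sequencing was carried out on 3 libraries labelled FFA2 global KO and 3 labelled WT, and the comparison asks how loss of the receptor in the whole body goes with the islet transcriptome. The knockout animals carried a knockout of Ffar2 in all tissues on a C57BL/6J background and were bred, like the WT mice, from heterozygous parents; each library was a pool of islets from 2 mice. The labels give an age of 10 to 12 weeks for both groups, and the study's supplement gives an older age for this experiment. All mice were male, per the study's supplement. The study kept mice on normal or high fat chow and names no diet for its RNA sequencing. Islets were released with collagenase, picked by hand and cultured overnight before RNA extraction. Whether replicate libraries share a mouse cohort is not stated, and each p-value takes in no more than the library-to-library spread, which may be technical.

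The libraries labelled KO held 17412715 to 23176395 counts and the WT libraries 19831034 to 22923259. Without names of several loci and genes that the authors' caller skipped, 17067263 to 22792367 counts were left in the libraries labelled KO and 19352339 to 21283444 in WT. Ffar2, the targeted gene, had 71.8, 43.9 and 46.1 CPM (counts set against library size, scaled by the trimmed mean of M-values, TMM) in the libraries labelled KO, against 34.1, 27.0 and 26.5 CPM in the WT libraries. This goes against the label, and each direction given here rests on the labels as deposited; whether the counted exons lie in the deleted part is not stated in the sources used here. Defining islet markers were present in all 6 libraries: Slc2a2, the glucose transporter of mouse beta cells, had 526.9 to 651.4 CPM in the libraries labelled KO and 706.5 to 775.6 CPM in WT, and Sst, the somatostatin of delta cells, had 2504 to 4105 CPM in the libraries labelled KO and 2753 to 3630 CPM in WT. Ins1, Ins2, Iapp and Gcg are listed at 0 in all 6 libraries, among 15 genes that the authors' caller skipped, and give no information here. Exocrine RNA differed widely between libraries: 32 acinar genes took 1.68, 10.9 and 27.9% of counts in the libraries labelled KO, against 4.96, 5.91 and 1.59% in WT. These shares leave out 5 of 37 listed acinar genes that the caller skipped: Cela1, Cela2a, Ctrb1, Pnlip and Amy2a5. The skipped genes of all kinds took 1.512, 1.815 and 1.082% of all counts in the libraries labelled KO, against 7.02, 8.211 and 2.27% in WT. Chga, a skipped gene, is listed at 350418, 315961 and 203749 counts in the libraries labelled KO and at 0 in each WT library. What these shares hold thus differs between the genotypes, and they do not measure the omitted acinar RNA. In bulk islets, fewer cells of a type and less RNA per cell cannot be told apart.

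No member was called between the genotypes by edgeR's quasi-likelihood test at an adjusted p of 0.05, against 0% of all genes tested, and none by limma-voom, also against 0%. Mnx1, Pdx1, Nkx6-1 and Mafa had mean levels of 17.9, 118.4, 222.6 and 236.1 CPM in the libraries labelled KO, against 9.77, 86.6, 186.3 and 198.9 CPM in WT, while the log2 fold changes of the other 6 lay between -0.22 and 0.10. An unadjusted p under 0.05 was reached by 2 members, Mnx1 and Pdx1, both higher, where 2.58% of all genes were higher at that level, and by 0 members in the lower direction, against 2.12% (4.69% in either direction). The same 2 were the members whose values did not overlap between genotypes, both higher, against 5.36% of all genes; 0 were apart in the lower direction, against 5.84% (11.2% in either direction). With 6 members above 0 and 4 below, the median log2 fold change of the members was 0.05, beside 0.02 over all 14082 genes.

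**Figure D1:**
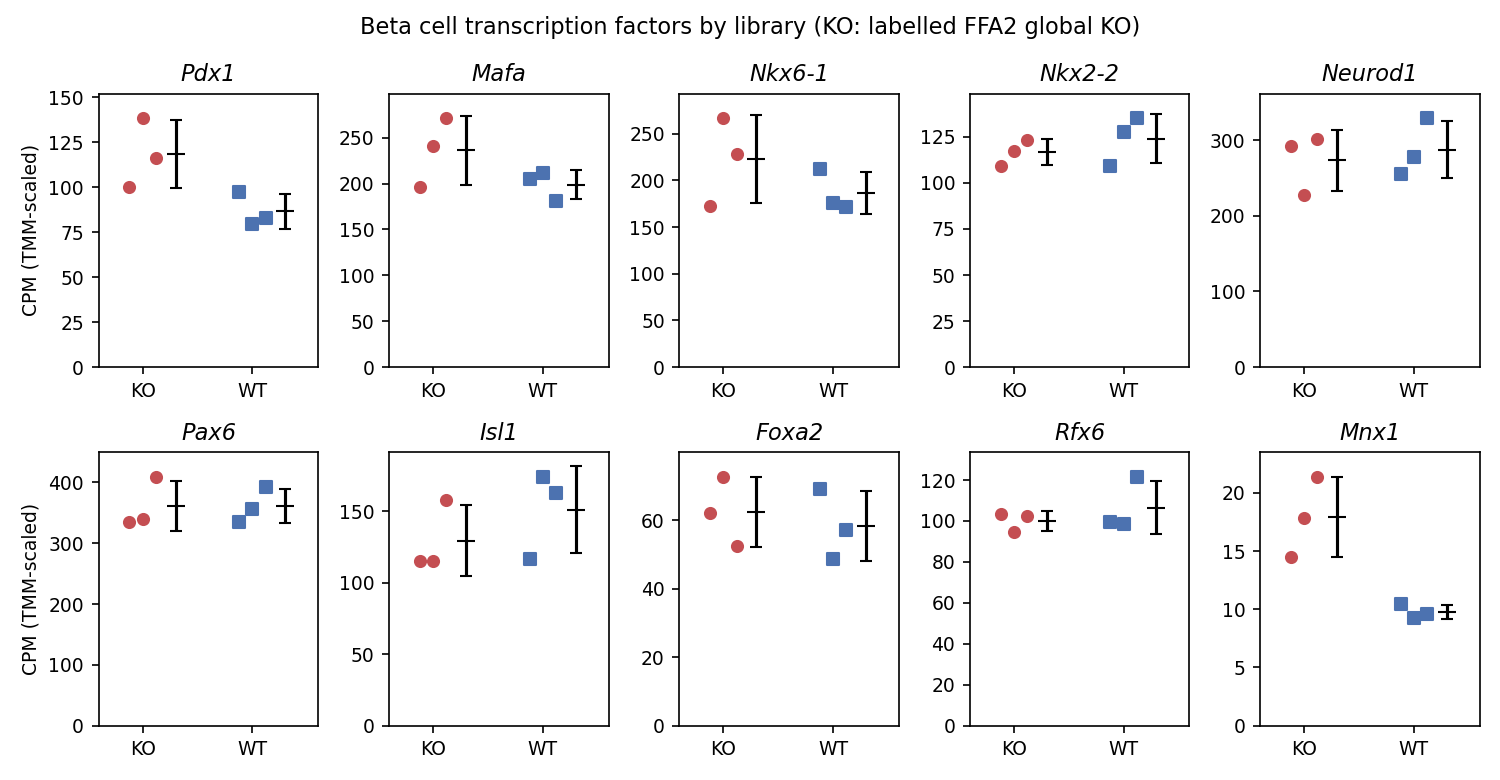
TMM CPM of the 10 factors in each library, with 1 panel for each gene, the libraries labelled KO left of WT, points for libraries and a line with bars for the mean ± SD (n = 3 each). Mnx1 (14.5 to 21.4 CPM in the libraries labelled KO, 9.29 to 10.4 CPM in WT) and Pdx1 are the 2 panels in which the genotypes do not overlap.

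Mnx1, a homeodomain factor that keeps beta cells from taking on delta cell features and is best known from motor neurons, was the lowest of the 10 in level and the most different between genotypes. It had 14.5, 17.9 and 21.4 CPM in the libraries labelled KO, against 10.4, 9.29 and 9.58 CPM in the WT libraries, or 17.9 ± 3.43 and 9.77 ± 0.593 CPM (SD, n = 3 each). All libraries labelled KO lay above all WT libraries, and the WT libraries differed little among themselves. The counts behind these values were 354, 305 and 312 in the libraries labelled KO and 237, 192 and 199 in WT, so that counting error alone (exact Poisson, 95%) gives 13.1 to 16.1 CPM for the lowest library labelled KO and 9.15 to 11.9 CPM for the highest WT library. The fitted log2 fold change was 0.87 (SE 0.17, 95% interval 0.48 to 1.26), a fold of 1.83. By edgeR its unadjusted p of 0.00112 was the 8th lowest of 14082 genes and its adjusted p (Benjamini-Hochberg) was 0.852. By DESeq2 the adjusted p was 0.0348, 1 of 8 genes called of 14079 (0.0568%), and over all settings the adjusted p of Mnx1 lay between 0.0348 and 0.9995.

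Pdx1, the homeodomain factor without which no pancreas forms and which in the adult activates insulin and Slc2a2, had 100.4, 138.3 and 116.4 CPM in the libraries labelled KO, against 97.5, 79.5 and 82.9 CPM in WT. The genotypes did not overlap, but the lowest library labelled KO and the highest WT library lay close together. The log2 fold change was 0.45 (SE 0.14, 95% interval 0.11 to 0.79), a fold of 1.37, with an unadjusted p of 0.0159 and an adjusted p of 0.852 by edgeR. The unadjusted p was no longer under 0.05 without KO replicate 2 (0.0587), without WT replicate 2 (0.0637) or without WT replicate 3 (0.0562). With total-count scaling it was 0.182 (log2 fold change 0.29), and with replicate 1 as the sole library labelled KO it was 0.215.

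The start site windows of 4 members, picked by their values, are shown. Mnx1 and Pdx1 are the members apart between genotypes and Nkx6-1 is the member most like Pdx1 over libraries. Isl1 is the member with the lowest log2 fold change, and the genotypes overlapped for Nkx6-1 and Isl1. Each window runs from 250 bases before to 50 after the start (RefSeq, GRCm38.p6, the mm10 build), written 5′ to 3′ on the gene's strand, and capitals mark the E box CANNTG, the motif of basic helix-loop-helix factors such as Neurod1. The windows are, for Mnx1, chr5:29478421-29478720 (minus strand), for Pdx1, chr5:147269847-147270146 (plus strand), for Nkx6-1, chr5:101664662-101664961 (minus strand), and for Isl1, chr13:116309639-116309938 (minus strand).
Mnx1: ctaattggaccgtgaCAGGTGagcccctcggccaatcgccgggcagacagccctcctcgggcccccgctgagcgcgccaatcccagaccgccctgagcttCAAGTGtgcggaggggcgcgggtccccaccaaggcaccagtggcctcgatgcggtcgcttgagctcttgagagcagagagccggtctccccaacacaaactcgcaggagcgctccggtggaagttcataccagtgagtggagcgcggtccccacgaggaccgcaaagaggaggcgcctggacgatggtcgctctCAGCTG
Pdx1: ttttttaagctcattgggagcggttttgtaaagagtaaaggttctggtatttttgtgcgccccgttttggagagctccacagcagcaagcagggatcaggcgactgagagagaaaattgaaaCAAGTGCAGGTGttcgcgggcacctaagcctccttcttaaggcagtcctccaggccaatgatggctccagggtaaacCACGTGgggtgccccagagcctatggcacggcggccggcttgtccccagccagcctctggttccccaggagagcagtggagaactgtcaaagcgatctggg
Nkx6-1: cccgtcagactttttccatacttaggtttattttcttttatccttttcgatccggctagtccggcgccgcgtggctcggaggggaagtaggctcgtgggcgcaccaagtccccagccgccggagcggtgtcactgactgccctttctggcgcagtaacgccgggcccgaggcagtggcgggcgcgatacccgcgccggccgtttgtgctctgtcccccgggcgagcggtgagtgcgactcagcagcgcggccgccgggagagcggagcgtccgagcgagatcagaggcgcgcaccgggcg
Isl1: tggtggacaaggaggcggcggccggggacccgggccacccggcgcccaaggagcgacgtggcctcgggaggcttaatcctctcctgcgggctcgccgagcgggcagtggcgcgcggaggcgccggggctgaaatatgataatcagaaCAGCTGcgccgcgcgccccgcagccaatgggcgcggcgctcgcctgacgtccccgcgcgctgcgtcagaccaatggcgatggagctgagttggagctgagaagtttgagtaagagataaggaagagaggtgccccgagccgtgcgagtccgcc
The E box matched 3 times in Mnx1, 3 in Pdx1, 0 in Nkx6-1 and 1 in Isl1, and at least once in 8 of the 12 windows that 9 of the members have in the table used (Mafa is not in it), against 72.3% of 32851 windows of all genes. On both strands, the homeodomain core TAAT was found 1 time in Mnx1, 0 times in Pdx1 and Nkx6-1, 2 times in Isl1 and 5 times in Rfx6. It was in 8 of 12 member windows against 58% of all. The Rfx6 window, chr10:51685268-51685567 (plus strand), lies inside the deposited location of the counted gene, which begins at 51677760, and not at its start. CCAAT was found 3 times in Mnx1, 2 in Pdx1, 0 in Nkx6-1 and 2 in Isl1, and in 5 of 12 member windows against 37.4% of all. The Maf core TGCTGA was in 3 of 12 member windows (19.5% of all), the forkhead motif TGTTTAC in 0 (3.65%) and TATAAA in 1 (13.6%); matches of different motifs may overlap. Mnx1, Pdx1 and Nkx6-1 lie on chromosome 5, Mnx1 at chr5:29473034-29478470, Nkx6-1 at chr5:101658139-101664996 and Pdx1 at chr5:147269959-147275848 (mm10, GENCODE M21), which is far apart.

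Nkx6-1 and Mafa, the other factors of mature beta cells, differed less. Nkx6-1, which represses alpha cell genes in beta cells, had 172.9, 266.4 and 228.4 CPM in the libraries labelled KO, against 212.5, 175.4 and 171.0 CPM in WT. Replicates 2 and 3 labelled KO were above every WT library and replicate 1 lay among them, and the log2 fold change was 0.26 (SE 0.18, 95% interval -0.16 to 0.67). Mafa, the leucine zipper factor that marks mature beta cells and activates insulin, had 196.2, 241.1 and 271.0 CPM in the libraries labelled KO, against 205.0, 211.0 and 180.5 CPM in WT. As for Nkx6-1, replicates 2 and 3 labelled KO were above every WT library and only replicate 1 lay inside the WT range. The log2 fold change of Mafa was 0.25 (SE 0.14, 95% interval -0.09 to 0.58). Without KO replicate 1, 4 members had an unadjusted p under 0.05 and were apart and higher: Mnx1 (log2 fold change 1.00), Pdx1 (0.56), Nkx6-1 (0.41) and Mafa (0.36). Of all 14245 genes tested in that setting, 4.18% were higher at such a p and 12.5% were apart and higher. Without KO replicates 2 and 3, a choice made after seeing the data that leaves 1 library labelled KO, the log2 fold change was 0.57 for Mnx1 and 0.21 for Pdx1, and for Nkx6-1 and Mafa it turned to -0.11 and -0.02.

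The factors that alpha and other endocrine cells share with beta cells did not separate the genotypes. Isl1, a LIM-homeodomain factor, had 115.3, 115.1 and 158.0 CPM in the libraries labelled KO, against 116.3, 174.0 and 163.0 CPM in WT. It was the member with the lowest log2 fold change, -0.22 (SE 0.19, 95% interval -0.68 to 0.23), and varied more than most within each genotype. Neurod1, a basic helix-loop-helix activator of insulin, had 291.9, 226.9 and 300.9 CPM in the libraries labelled KO, against 255.5, 278.1 and 328.6 CPM in WT, with a log2 fold change of -0.07 (SE 0.15). Pax6, a paired-box factor needed for hormone expression, had 334.5, 340.4 and 409.2 CPM in the libraries labelled KO, against 335.7, 355.5 and 391.8 CPM in WT. The mean of Pax6 was nearly the same in both (361.4 ± 41.5 and 361.0 ± 28.5 CPM), and the 95% interval of its log2 difference ran from -0.29 to 0.30.

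Nkx2-2, a homeodomain repressor of alternative endocrine fates, had 109.3, 117.6 and 123.4 CPM in the libraries labelled KO, against 109.2, 127.8 and 135.0 CPM in WT, with a log2 fold change of -0.09 (SE 0.11). Rfx6, a winged-helix factor that supports calcium channel and insulin secretion genes, had 103.3, 94.5 and 102.7 CPM in the libraries labelled KO, against 99.4, 98.7 and 121.6 CPM in WT, also with a log2 fold change of -0.09 (SE 0.11). Both had their highest value in a WT library, and their genotypes overlapped. Foxa2, a forkhead pioneer factor, had 62.1, 72.7 and 52.4 CPM in the libraries labelled KO, against 69.1, 48.6 and 57.2 CPM in WT, a log2 fold change of 0.10 (SE 0.17, 95% interval -0.30 to 0.50) and no separation of the genotypes. The sign of these differences was not stable: with total-count scaling Foxa2 was at -0.04 and Pax6 at -0.17, and with scaling on pan-endocrine genes Nkx2-2 was at 0.07, Neurod1 at 0.09 and Rfx6 at 0.07, while Isl1 stayed below 0. For Nkx2-2, Rfx6, Foxa2, Neurod1, Pax6 and Isl1, the adjusted p by edgeR lay between 0.871 and 0.998. The strand of counting is not stated, and Neurod1 lies within the span of Cerkl, Pax6 overlaps the antisense Pax6os1, Pdx1 the antisense Plut and Nkx2-2 the antisense Nkx2-2os, so reads of these neighbours may be among the counts of the members.

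**Figure D2:**
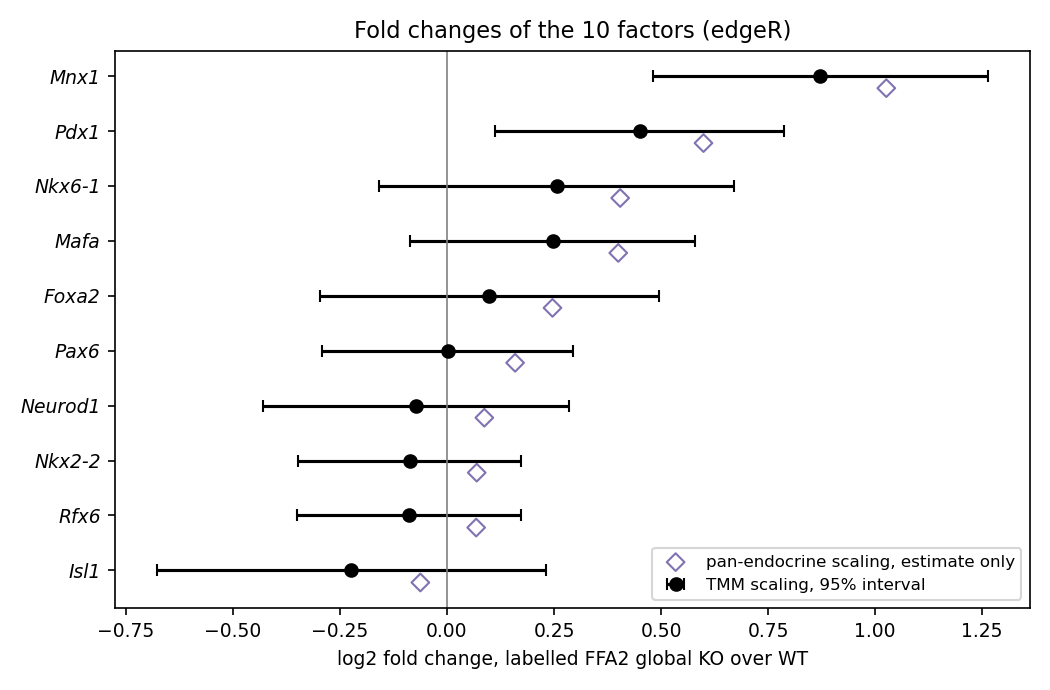
Log2 fold change of each factor, libraries labelled KO over WT, from the edgeR fit, with filled points for the estimate with TMM scaling, bars for its 95% interval (n = 3 each) and open diamonds for the estimate with pan-endocrine scaling. The intervals of Mnx1 (0.48 to 1.26) and Pdx1 (0.11 to 0.79) lie above 0 and those of the other factors include it.

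Set against the mean of the WT libraries, the median of the members was -0.03, 0.11 and 0.14 on the log2 scale in the 3 libraries labelled KO, against -0.02, -0.05 and 0.05 in the WT libraries. With TMM scaling, replicates 2 and 3 labelled KO were the highest of the 6 and replicate 1 was at the WT level. The same replicates 2 and 3 had the highest acinar shares of the 6, and replicate 1 labelled KO one near the lowest WT library. Before scaling, the members took 0.1605, 0.1633 and 0.14% of counts in the libraries labelled KO, against 0.1613, 0.1617 and 0.1763% in WT. The TMM factors were 1.069, 1.001 and 0.7847 in the libraries labelled KO, against 1.068, 1.038 and 1.074 in WT. Replicate 3 labelled KO thus had the lowest share before scaling. TMM CPM and the acinar share both depend on the total counts of a library and are not independent. Mnx1 had 14.5 CPM in the library labelled KO with an acinar share of 1.68%, against 9.58 CPM in the WT library with 1.59%. In the same libraries Pdx1 had 100.4 against 82.9 CPM, Nkx6-1 172.9 against 171.0 CPM and Mafa 196.2 against 180.5 CPM. This sets 1 library against 1, and the cause of the differences was not tested. With the mean log2 CPM of the acinar genes as a covariate, the log2 fold change was 0.72 (SE 0.13) for Mnx1 and 0.37 (SE 0.14) for Pdx1, and it was 0.10 (SE 0.08) for Mafa and 0.11 (SE 0.15) for Nkx6-1. When the libraries were scaled on 22 pan-endocrine genes, such as those of the secretory granule, it was 1.03 for Mnx1, 0.60 for Pdx1, 0.40 for Mafa and 0.40 for Nkx6-1, and 3 members were higher at an unadjusted p under 0.05, against 11.7% of all genes with that scaling. This scaling moved the median over all genes to 0.17, and scaling on total counts moved it to -0.14, where Mnx1 had 0.69, Pdx1 0.29, Nkx6-1 0.09 and Mafa 0.07. Of the genes with an unadjusted p under 0.05, 54.9% were higher with TMM, 96.6% with the pan-endocrine scaling and 8.8% with total counts.

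**Figure D3:**
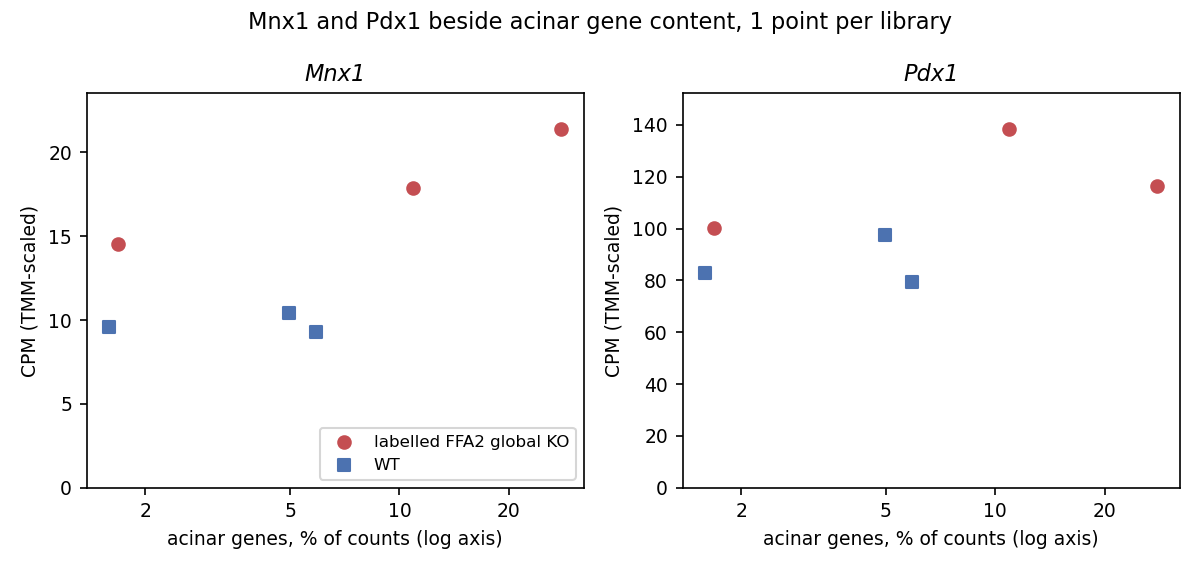
TMM CPM of Mnx1 (left panel) and Pdx1 (right panel) in each library (y axis) against the percent of counts from acinar genes (x axis, log scale), with circles for the libraries labelled KO and squares for WT. At the acinar share of 1.68% both genes have their lowest value among the libraries labelled KO, 14.5 CPM for Mnx1 and 100.4 CPM for Pdx1. The WT library at 1.59% has 9.58 CPM for Mnx1 and 82.9 CPM for Pdx1. The share counts the 32 tested acinar genes. Both axes depend on the total counts of a library and are not independent.

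Ratios of 2 members within a library do not depend on the scaling. Of 45 pairs of members, 11 had ratios that did not overlap between the genotypes, or 24.4%, against 10.2% of all pairs of tested genes. Every pair with Mnx1 was among them, 9 of 9, but Mnx1 over another gene was apart and higher for 76% of 14075 genes, so this held for most genes and not for its fellow members in particular. Of the 36 pairs without Mnx1, 2 were apart, or 5.56%, both with Pdx1 on top. Pdx1 counts were 0.581, 0.519 and 0.510 of those of Nkx6-1 in the libraries labelled KO, against 0.459, 0.453 and 0.485 in WT. The ratio of Pdx1 to Nkx2-2 was 0.919, 1.18 and 0.943 in the libraries labelled KO, against 0.893, 0.622 and 0.614 in WT. Pdx1 over another gene was apart and higher for 35.4% of genes.

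The members also differed in how their values ran over the 6 libraries. By the mean absolute difference of centred log2 CPM, Nkx2-2 and Pax6 were nearest to each other (0.0694), followed by Neurod1 and Rfx6 (0.0809) and by Pdx1 and Nkx6-1 (0.101). Mnx1 and Isl1 were 0.535 apart, and the range over libraries was 1.19 on the log2 scale for Mnx1 but 0.291 for Pax6. Among all other tested genes, the 5 whose centred values were most like the median of the members over the 6 libraries were D10Wsu52e (0.0253), Zfp532 (0.0263), Ddx23 (0.0292), Stx2 (0.0314) and Tcp1 (0.0327).

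**Figure D4:**
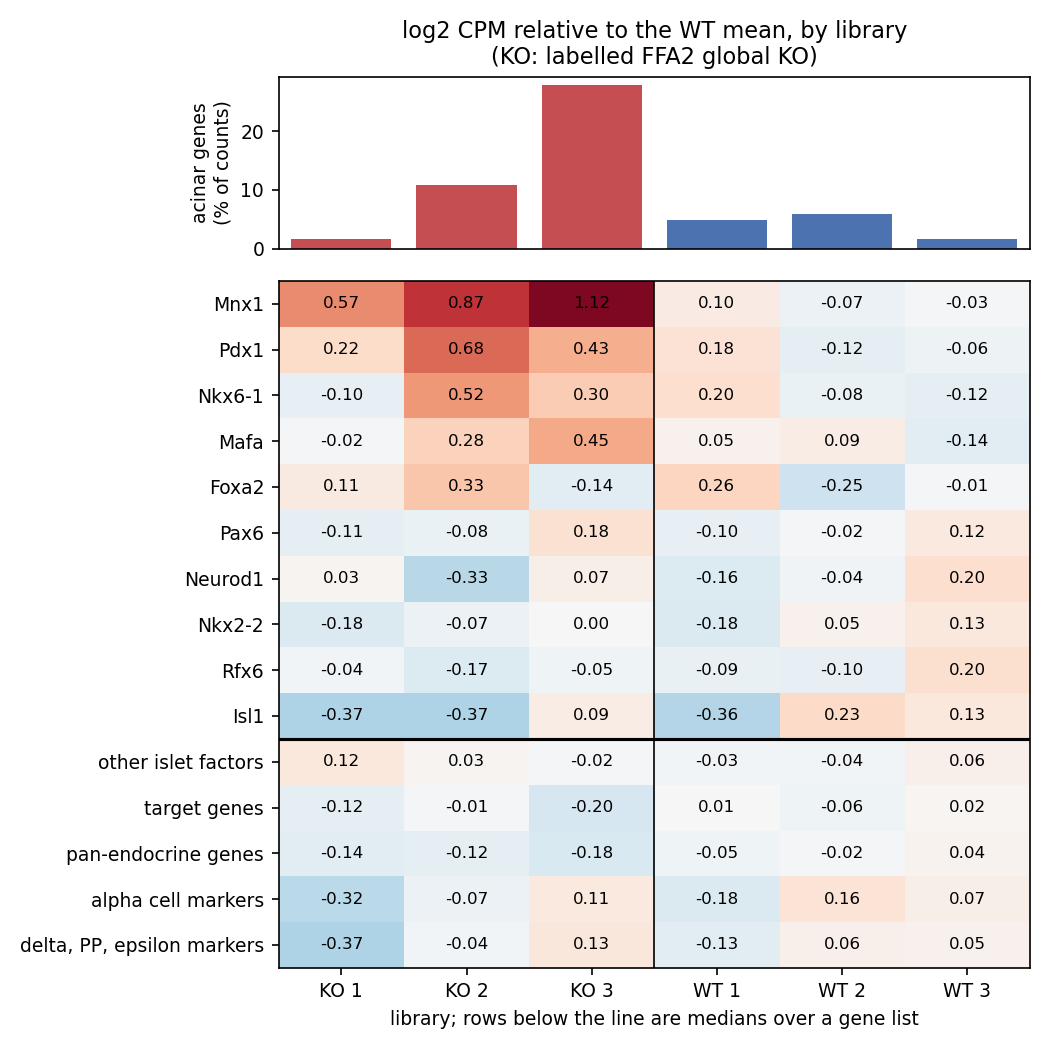
Log2 CPM of each factor (rows) in each library (columns, libraries labelled KO left of WT) minus the mean of the WT libraries, with medians of 5 gene lists in the lower rows and the percent of counts from acinar genes as bars on top. Mnx1 is at 0.57, 0.87 and 1.12 in the libraries labelled KO, while Pax6 stays between -0.11 and 0.18 in all 6.

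Levels were compared between members as CPM per kilobase of the exons that fall in the deposited location. Mafa was highest and Mnx1 lowest in all 6 libraries, with 218.6 ± 34.9 and 12.3 ± 2.35 CPM per kb in the libraries labelled KO, against 184.1 ± 14.96 and 6.71 ± 0.407 CPM per kb in WT (SD, n = 3 each). The order rests on the deposited locations, which hold only part of the annotated transcript for some members. These are Mafa (1080 of 2739 bases), Nkx6-1 (1795 of 3138), Pdx1 (1287 of 2158) and Mnx1 (1456 of 2245). The same counts divided by whole transcripts would give these 4 lower levels and another order. Whether reads counted over whole transcripts would do so was not tested. In WT, Pax6 (116 ± 9.14), Neurod1 (115.2 ± 15.01) and Nkx6-1 (103.8 ± 12.7) came next and overlapped, Pdx1 (67.3 ± 7.43), Isl1 (60.1 ± 12.2) and Nkx2-2 (58.6 ± 6.29) formed a lower overlapping run, and Rfx6 (34.5 ± 4.20) and Foxa2 (27.4 ± 4.82) overlapped above Mnx1. In the libraries labelled KO, Nkx6-1 (124.0 ± 26.2) stood second in mean but overlapped Pax6 (116 ± 13.3) and Neurod1 (109.6 ± 16.2), and Pdx1 (92.0 ± 14.8) was apart from the lower members. The order therefore held 4 separated steps in each genotype, and the values of neighbours within a run overlapped.

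**Figure D5:**
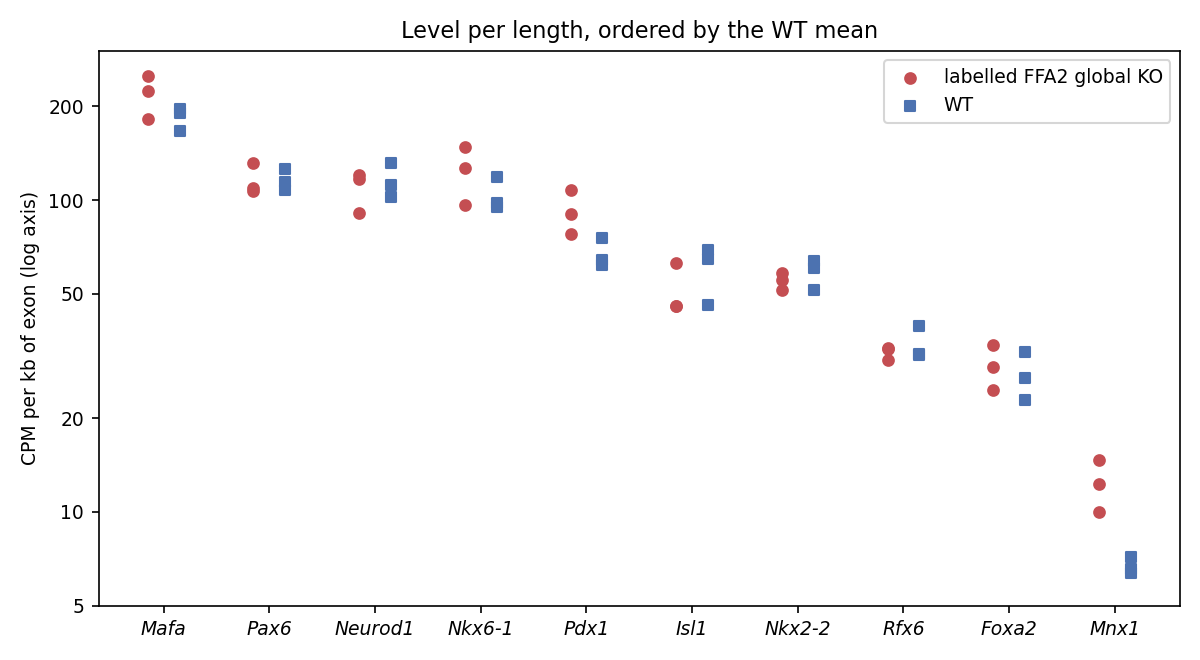
Level of each factor in CPM per kilobase of exon (log axis), with circles for the libraries labelled KO and squares for WT (n = 3 each), ordered by the WT mean. Mafa, at 218.6 CPM per kb in the libraries labelled KO and 184.1 in WT, is highest on average, and Mnx1, at 12.3 and 6.71, is lowest.

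Genes around the members gave no call by edgeR, DESeq2 or limma-voom. Of 33 tested beta cell genes that these factors are known to bind or activate, 1 was higher and 1 lower at an unadjusted p under 0.05, 6 were apart and lower and 0 apart and higher, and the shares over all genes were 2.58% higher and 2.12% lower at that p, 5.84% apart and lower and 5.36% apart and higher. The median log2 fold change was -0.11 (-0.25 with total-count scaling and 0.05 with pan-endocrine scaling), with 11 genes above 0 and 22 below. Ins1, Ins2, Iapp and Chga, also on the list, were among the skipped genes and were not tested. Chgb and Pcsk2 were among the targets apart and lower. Chgb is also on the list of pan-endocrine genes and Pcsk2 on that of alpha cell genes, so these lists are not separate. The gene higher at an unadjusted p under 0.05 was Fgfr1 (log2 fold change 0.41, SE 0.15), and its genotypes overlapped. Slc2a2 had 642.6, 651.4 and 526.9 CPM in the libraries labelled KO, against 723.3, 706.5 and 775.6 CPM in WT (log2 fold change -0.28, SE 0.13). Ffar1, a receptor for long-chain fatty acids on beta cells, had 10.0, 13.1 and 12.5 CPM in the libraries labelled KO, against 27.0, 15.4 and 16.8 CPM in WT (-0.73, SE 0.24), and Sytl4, a granule protein, had 413.8, 418.4 and 367 CPM in the libraries labelled KO, against 456.3, 432.0 and 459.5 CPM in WT. Pdx1 and its target Slc2a2 thus had log2 fold changes of opposite sign, neither with an adjusted p under 0.05. Under total-count scaling 5 of the targets had an unadjusted p under 0.05 in either direction, beside 0.405% of all genes higher and 4.2% lower. When a library was left out, 1 to 7 targets had such a p, beside 0.701 to 5.03% of all genes higher and 0.74 to 3.63% lower.

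Of 35 tested genes encoding other islet transcription factors (Pax4, Pou3f4, Onecut1 and Lmx1a did not pass the filter), 1 was higher at an unadjusted p under 0.05, 0 were apart, and the median log2 fold change was 0.07 (-0.05 with total-count scaling and 0.22 with pan-endocrine scaling). Tshz1, a zinc finger factor linked to Pdx1 in beta cells, had 126.1, 101.7 and 130.5 CPM in the libraries labelled KO, against 97.2, 91.3 and 103.2 CPM in WT (log2 fold change 0.30, SE 0.12), and Ovol2 had 10.2, 11.4 and 9.11 CPM in the libraries labelled KO, against 9.51, 5.71 and 5.30 CPM in WT (0.58, SE 0.25). In both, the genotypes overlapped. Of 24 cofactors, 0 had an unadjusted p under 0.05, 1 was apart and higher and 2 apart and lower, with a median log2 fold change of 0.05. For both lists the shares over all genes were 2.58% higher and 2.12% lower at that p. Apart and higher were 5.36% of all genes, apart and lower 5.84%, and 11.2% apart in either direction. Smarca4, an ATPase of the SWI/SNF remodelling complex that Pdx1 recruits, had 192.0, 195.4 and 196.3 CPM in the libraries labelled KO, against 179.8, 174.1 and 185.7 CPM in WT. Hdac1, a histone deacetylase, had 70.1, 73.4 and 74.9 CPM in the libraries labelled KO, against 76.2, 84.6 and 82.4 CPM in WT. Psmd9 (bridge-1), a coactivator of insulin transcription, had 15.6, 19.97 and 19.7 CPM in the libraries labelled KO, against 20.7, 20.7 and 21.4 CPM in WT. These differences were small, with log2 fold changes of 0.11 (SE 0.09), -0.16 (SE 0.09) and -0.18 (SE 0.13).

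Markers of the other islet cells lay lower in the libraries labelled KO more often than higher with TMM, though not with pan-endocrine scaling, where the medians were 0.03 for alpha cell genes and 0.03 for delta, PP and epsilon cell genes; none was called. Of 11 tested alpha cell genes, 2 were above 0 and 9 below, with a median log2 fold change of -0.13, and their summed level was 6635 to 8156 CPM in the libraries labelled KO and 8147 to 9087 CPM in WT. Of 12 delta, PP and epsilon cell genes, 2 were above 0 and 10 below, with a median of -0.13 and sums of 6668 to 8832 CPM in the libraries labelled KO and 8302 to 8971 CPM in WT. Of the 22 pan-endocrine genes, 3 were lower and 0 higher at an unadjusted p under 0.05, 6 were apart and lower, against 2.12% of all genes lower at that p and 5.84% apart and lower. The sums, 25860 to 27870 CPM in the libraries labelled KO and 28470 to 30830 CPM in WT, did not overlap. Dnajc12 had 63.7, 61.2 and 63.0 CPM in the libraries labelled KO, against 74.3, 71.8 and 73.7 CPM in WT (log2 fold change -0.23, SE 0.08), with Resp18 at -0.33 and Vamp2, a vesicle protein of exocytosis, at -0.25. The 32 acinar genes had a median of 1.85, with 32 of 32 above 0. Of these genes 0 were apart, against 11.2% of all genes. At an unadjusted p under 0.05, 2 were higher, against 2.58% of all genes. Cpa1, the carboxypeptidase that defines acinar cells, had 1942, 13756 and 44294 CPM in the libraries labelled KO, against 5569, 6633 and 1637 CPM in WT. Summed over the list, the 10 members themselves had 1500.3 to 1784 CPM in the libraries labelled KO and 1511 to 1641 CPM in WT.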

How the data were processed

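RNA libraries from total RNA of islets were made with standard Illumina protocols, sequenced by the authors, aligned to mm10 with TopHat2 2.0.8b and quantified with Cuffdiff 2.1.1, per the labels and the study's methods. The deposited count table holds estimated counts per gene and library, of which 478 single-locus genes have values that are not whole; they were rounded. The authors' comparison table holds pooled RPKM per genotype, log2 fold changes, a test score and p-values and q-values; these deposited comparisons were not used. Of 22923 entries, 158 names with several loci and 15 genes that the caller skipped were left out.

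Genes were filtered with filterByExpr (minimum count 10, minimum total 15), scaled by TMM and fitted in R 4.3.3 with genotype as the only term; the quasi-likelihood test of edgeR 4.0.16 was 2-sided with Benjamini-Hochberg adjustment. DESeq2 1.42.0, limma-voom 3.58.1, 5 scalings, 2 filters, 2 covariates and the leaving out of libraries were alternatives. The scripts were tested on simulated data. Biological variation was 21.5% (common coefficient). Intervals on counts cover counting error only. Levels per kb used exons of the GENCODE M21 transcript with the deposited RefSeq identifier, within the deposited location. Named genes were all members, Ffar2, and in each list up to 3 genes of lowest p whose genotypes did not overlap or else up to 2 of lowest p. Fgfr1 was named after its values were seen, Chgb because it is on more than 1 list, and the others named are marker genes. The members and lists were chosen with earlier results of these data known.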

Additional observations from a re-analysis of the deposited data

How the results depend on the processing

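Over 19 alternatives, Mnx1 (log2 fold change 0.57 to 1.03), Pdx1 (0.21 to 0.60) and Isl1 (-0.40 to -0.06) kept their direction. Among the 19 settings, the fit of the report included, that kept at least 2 libraries a genotype, Mnx1 had an unadjusted p under 0.05 in 19 and Pdx1 in 15. DESeq2 called 1 member, Mnx1 (0.87). With upper-quartile scaling 1 member was apart and higher (4.62% of all genes), and Pax6 was at -0.0126. With total-count scaling the members' median was -0.11, and 1 member was higher at an unadjusted p under 0.05 (0.405% of all genes). Of the members, 1 was apart and higher (0.476%) and 2 apart and lower (15.6%). In either direction 0 other islet factors and 5 targets had an unadjusted p under 0.05, beside 0.405% of all genes higher and 4.2% lower. Pax6 was at -0.17 and Foxa2 at -0.0414. With pan-endocrine scaling the median was 0.20, Nkx2-2 was at 0.0695, Neurod1 at 0.0872 and Rfx6 at 0.0682, with 3 members higher at that p (11.7% of all genes) and 3 apart and higher (19%). Pax6 was at -0.0038 with no filter, -0.0015 with 10 counts in every library, -0.047 with the acinar covariate and -0.00201 with the omitted genes kept. Without KO replicates 2 and 3, chosen after seeing the data, 1 library labelled KO is left, assumed to vary like the WT libraries; the median was -0.0313, 1 member was higher at that p (12.3% of all genes), 1 was apart and lower (34.5%), Mafa was at -0.0188, Nkx6-1 at -0.11, Neurod1 at 0.0226 and Pax6 at -0.11.

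When each library was left out in turn, the median ran from -0.02 to 0.09. Members higher at an unadjusted p under 0.05 ran from 1 to 4 (0.701 to 5.03% of all genes). Members apart and higher ran from 2 to 4 (7.21 to 12.8%) and apart and lower from 0 to 2 (8.71 to 13.4%). At that p in either direction were 0 to 2 cofactors, 0 to 5 other islet factors and 1 to 7 targets. Beside these, 0.701 to 5.03% of all genes were higher and 0.74 to 3.63% lower. The log2 fold change ran from -0.101 to 0.0612 for Pax6, -0.0229 to 0.236 for Foxa2, -0.154 to 0.0461 for Neurod1 and -0.145 to 0.0127 for Rfx6. Replicate numbers are shared by the genotypes, but the deviations of same-numbered libraries correlated at 0.114, -0.138 and -0.344 and 0 of 6 libraries correlated best with their own number. With the replicate number as a block, 454 genes had an unadjusted p under 0.05 instead of 661, Mnx1 was at 0.86, Pdx1 at 0.44 and Pax6 at -0.0017, and 0 members were called. The cause of these changes was not tested. The genes with an unadjusted p under 0.05 numbered 1699 with pan-endocrine scaling, 2723 with the acinar covariate and 225 to 1238 with 1 library left out. With 1 library labelled KO against 3 WT libraries, whose spread alone sets the error, 2849 genes had such a p and 165 were called, which bears on that library and not on the genotype. With 305 to 354 counts in the libraries labelled KO and 192 to 237 in WT, Mnx1 was the member most limited by depth.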

Other observations

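Genes normally kept silent in beta cells, of which 19 of 20 were tested, gave no call by edgeR, DESeq2 or limma-voom. At an unadjusted p under 0.05, 1 was higher and 1 lower, against 2.58 and 2.12% of all genes. Apart and higher were 2, against 5.36% of all genes, and the median log2 fold change was 0.09. Smad3, a mediator of TGF-beta signals, had 8.54, 9.14 and 9.87 CPM in the libraries labelled KO, against 7.04, 6.48 and 5.92 CPM in WT (0.50, SE 0.15). Rest, a repressor of neuronal and endocrine genes, had 2.504, 1.87 and 2.12 CPM in the libraries labelled KO, against 1.72, 1.31 and 1.35 CPM in WT (0.57, SE 0.26).

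Markers of non-endocrine cells other than acinar cells gave no call. The median log2 fold change was -0.04 for 14 duct genes, 0.08 for 15 endothelial genes, -0.23 for 15 stromal genes, -0.27 for 19 myeloid genes and -0.06 for 15 neural genes. The genotypes were apart for Krt7 among duct genes (-0.31) and for 2 myeloid genes, Cd74 (-0.27) and H2-Aa (-0.23), each lower in the libraries labelled KO. Robo4 (0.34), Flt1 (0.16), Rgs5 (0.22), Thy1 (-0.64), Tubb3 (-0.76) and Prph (-1.04) overlapped between genotypes, as did Ghrl (-0.56) and Fgf12 (-0.26) of the other islet cells and Prss1 (2.66) and Prss3 (4.02) of acinar cells. Gria3 (-0.23) and Pcsk2 (-0.17) of the alpha cell list were apart and lower. Beside the genes of these lists that were apart and lower, the share over all genes was 5.84%.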
